A study of Sus scrofa with 6 samples.

Results

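The collagen genes were described in the longissimus dorsi (LD), a long back muscle, of Laiwu pigs with high or low intramuscular fat (IMF). A gene was a member if its symbol in the deposited transcript table had the form COL, a number, A and a number, and its level was the sum of all its transcripts. In this way 39 of 31908 Ensembl genes were members, with 161 transcripts between them. The members comprised 10 fibrillar, 5 basement membrane, 5 beaded filament, 3 network, 8 fibril-associated, 2 multiplexin and 4 transmembrane collagens, and 2 other collagens.

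Collagens are secreted proteins in which chains with a repeated glycine wind around each other into a triple helix. Fibrillar collagens form the fibers of the connective tissue that wraps muscle fibers, bundles and whole muscles. Type IV collagen forms the sheet of the basement membrane, type VI collagen forms beaded filaments between fibers and basement membrane, and fibril-associated collagens sit on the surface of fibrils. In muscle, fibroblasts and fibro-adipogenic progenitors make most of the fibrillar and type VI collagen.

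The S-H group held 3 pigs with high IMF content (LW63, LW70 and LW119) and the S-L group 3 pigs with low IMF content (LW82, LW88 and LW90). All were castrated males of the Laiwu breed, a fatty breed of North China, chosen from the ends of the IMF range of a larger set of slaughtered pigs. No age was given in the sources used here, and no animal was treated or genetically altered. Each pig gave 1 library of total RNA depleted of ribosomal RNA, so the pig was the replicate and p values measure the spread between pigs.

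Levels are fragments per kilobase of transcript and of sequencing output (FPKM), a unit that divides by transcript length, so that levels of different genes can be set side by side. Reads per gene were not used here and the depth behind each level is unknown. The summed FPKM of all transcripts ranged from 638536 in LW119 to 846661 in LW82, and the median-ratio size factors of the tested genes from 0.8079 in LW90 to 1.1468 in LW119. The median log2 fold change of all 12740 protein-coding genes tested was 0.21 in favor of S-H, and 0.01 after division by the size factors. Changes are therefore given below beside this shift. The muscle fibre genes CKM (1985.4 to 3939.1 FPKM over the 6 pigs), DES and MYH7 were high in every library, and 4 of the 8 muscle fibre markers looked for were in the table.

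No collagen gene passed the thresholds of the study, which are an unadjusted p below 0.01 together with a change of at least 1 on the log2 scale in either direction. By limma 0 of the 29 members tested were called, where 1.36% of all genes tested were called (1.17% higher and 0.188% lower in S-H). At an unadjusted p below 0.05, 2 of 29 members (6.9%) passed, against 8.16% of all genes (7.08% higher and 1.08% lower in S-H). These were COL16A1, higher in S-H, and COL13A1, lower in S-H. The same 2 members were the only ones of the 29 whose S-H and S-L pigs did not overlap in level, which is 6.9% of the members against 14.8% of all genes. Benjamini-Hochberg adjusted p from limma ran from 0.607 to 0.997 over the members, and no gene of the 12740 passed at an adjusted p below 0.05, although 1039 passed at an unadjusted p below 0.05.

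The log2 fold change was positive in 23 of 29 members (79.3%) and in 74.1% of all genes. After division by the size factors it was positive in 18 of 29 members and in 50.9% of all genes, and 1 member passed at an unadjusted p below 0.05 in limma (COL13A1), against 6.68% of all genes. The median log2 fold change of the members was 0.27 on the FPKM scale and 0.08 with size factors, a little above the medians of all genes given above. A p that missed the threshold does not show that levels were alike. The 95% confidence intervals of the members reached to either side of the estimate by a median of 0.85 on the log2 scale (1.8-fold), against 0.72 for all genes. Of the 29 intervals, 27 covered 0, only 8 lay within a log2 fold change of -1 to 1, 17 reached 1 or more and 7 reached -1 or less.

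**Figure D1:**
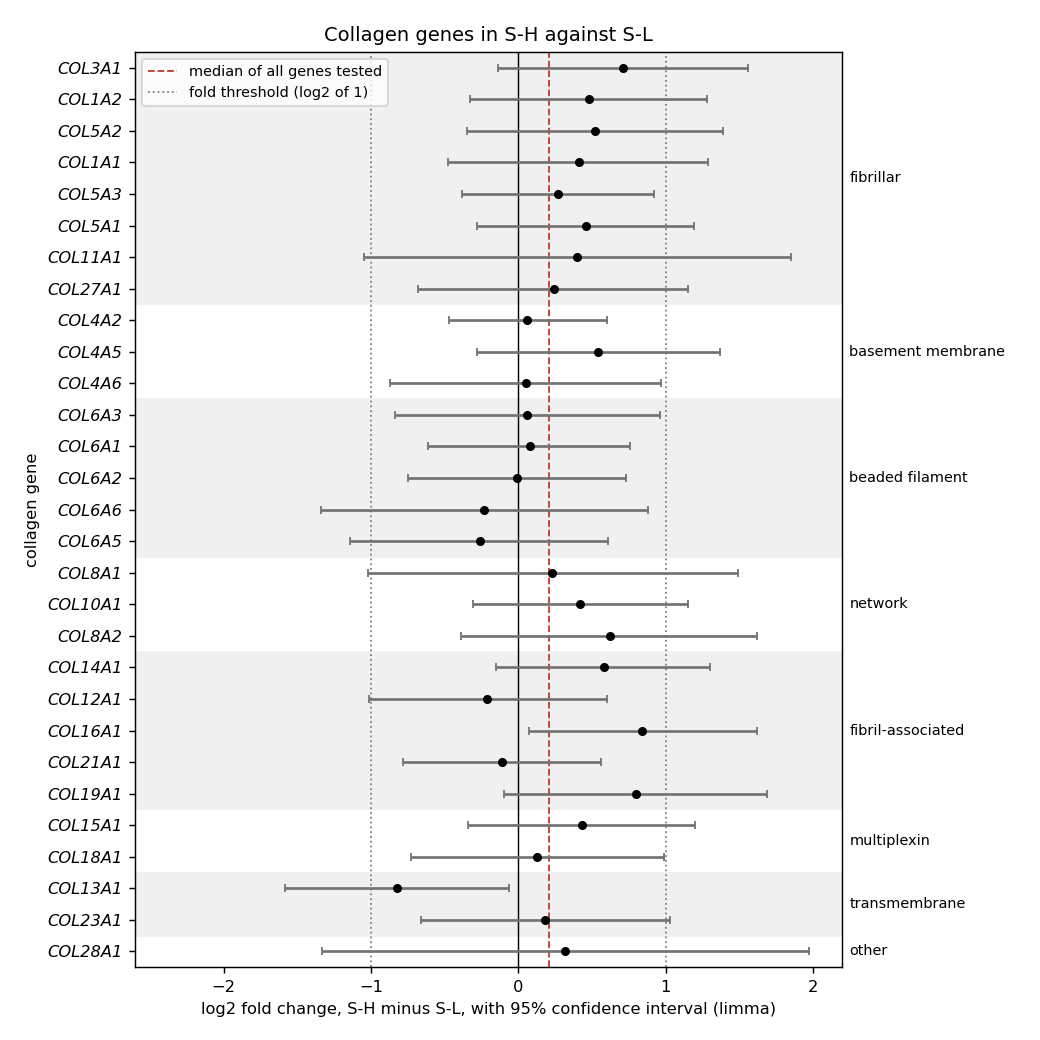
Log2 fold change of S-H minus S-L (horizontal axis, on the log2(FPKM + 0.1) scale) of the 29 collagen genes tested, with points for the estimate and bars for the 95% confidence interval from limma. The red line at 0.21 is the median of all genes tested and the dotted lines are the fold threshold; the intervals of COL16A1 and COL13A1 leave out 0, and the other 27 cover it.

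The summed level of the members came from a small number of genes. Among the members, COL3A1 had the highest mean over the 6 pigs (172.5 FPKM), followed by COL4A2 (102.8 FPKM), COL6A3 (60.4 FPKM), COL1A2 (57.7 FPKM) and COL6A1 (41.6 FPKM). COL4A1, which has no symbol in the table and so was no member, had a mean of 131.9 FPKM in its larger record and 51.0 FPKM in its smaller one. The 3 highest members held 54.3% to 58.2% of the summed FPKM of the 39 members in each pig, and the 10 highest held 88.8% to 92.9%. The summed level of the members was 667.2 FPKM in LW63, 414.9 FPKM in LW70 and 956.4 FPKM in LW119 of the S-H group, and 491.8 FPKM in LW82, 603.5 FPKM in LW88 and 431.1 FPKM in LW90 of the S-L group. The S-H pigs thus held both the highest and the lowest sum, and enclosed all S-L pigs. Fibrillar collagens made up 46.2% to 56.0% of this sum in S-H and 40.1% to 46.9% in S-L, beaded filament collagens 18.8% to 23.3% and 21.6% to 28.3%, and basement membrane collagens 12.6% to 21.4% and 17.9% to 21.6%. These shares leave out COL4A1. With both of its records added, basement membrane collagens made up 28.8% to 43.7% of the sum in S-H and 37.2% to 43.4% in S-L, and fibrillar collagens 33.1% to 45.7% and 29.5% to 33.9%, and the groups still overlapped. In bulk muscle, fewer or more collagen-producing cells and less or more RNA per cell cannot be told apart.

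**Figure D2:**
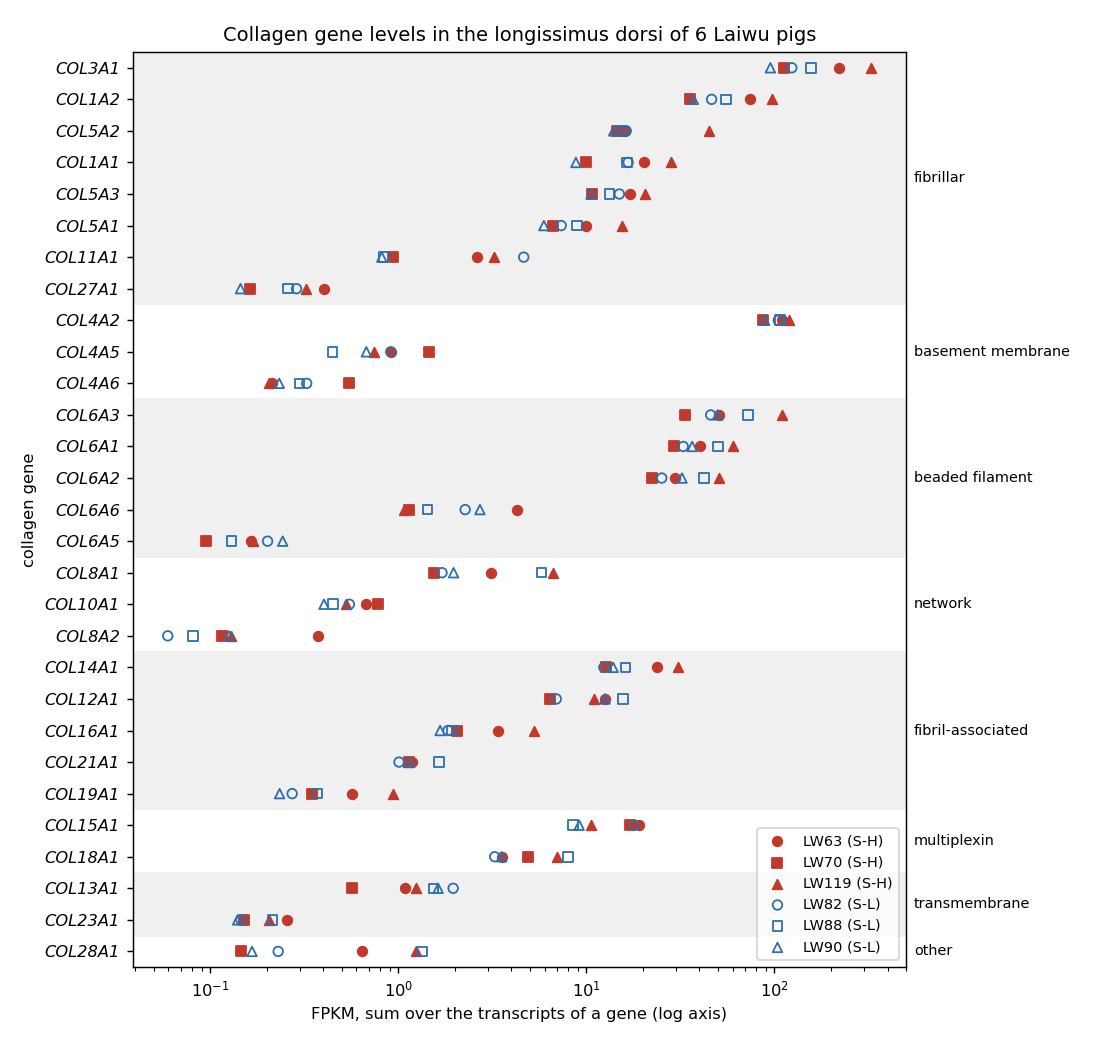
Level of the 29 collagen genes tested, in FPKM on a log axis, with 1 point per pig (filled red for S-H, open blue for S-L) and the genes grouped by kind of collagen. The levels run from 326.5 FPKM for COL3A1 in LW119 to 0.0595 FPKM for COL8A2 in LW82, and the red and blue points overlap for every gene but COL16A1 and COL13A1.

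Fibrillar collagens had 8 of 10 members tested, and all 8 had a higher estimate in S-H, as had 74.1% of all genes. None of the 8 passed at an unadjusted p below 0.05. Their median log2 fold change was 0.43, against 0.21 for all genes. With size factors it was 0.22, against 0.01, and all 8 remained positive, against 50.9% of all genes. COL11A1, 1 of the 8, was 0.04 with annotated transcripts only and -0.7 with the transcript of the highest mean. The fibrillar COL24A1, which has no symbol and so was no member, went the other way. Its log2 fold change was -1.0, with a 95% interval from -2.59 to 0.59. COL3A1, the single chain of type III collagen and a main component of the fine collagen network of muscle, lies on chromosome 15 from 93556912 to 93615815. It reached 219.6 FPKM in LW63, 113.2 FPKM in LW70 and 326.5 FPKM in LW119, against 123.9 FPKM in LW82, 156.4 FPKM in LW88 and 95.3 FPKM in LW90. LW63 and LW119 lay above all S-L pigs, whereas LW70 lay below LW82 and LW88. The log2 fold change of COL3A1 was 0.71 with a standard error of 0.38 and a 95% interval from -0.14 to 1.56 (limma, unadjusted p = 0.0921, adjusted p = 0.627). It depended on single pigs of the S-H group. Without LW70 it was 1.13 (limma, unadjusted p = 0.00634) and past the thresholds of the study, and without LW119 it was 0.36 (limma, unadjusted p = 0.311).

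Type I collagen, the bulk of the thick fibers, is built from the chains of COL1A1 and COL1A2. COL1A2 stood at 74.7, 35.6 and 96.9 FPKM in LW63, LW70 and LW119, and at 46.4, 55.2 and 37.1 FPKM in LW82, LW88 and LW90. COL1A1 stood at 20.3, 9.99 and 28.1 FPKM in the same S-H pigs and at 16.7, 16.5 and 8.81 FPKM in the same S-L pigs. In both genes LW119 was the highest pig and LW63 the next, while LW70 was within or below the S-L range. The fold of COL1A1 between the group means on the log scale was 1.33, with a 95% interval from 0.72 to 2.45, and that of COL1A2 was 1.39, from 0.8 to 2.44. COL1A2 exceeded COL1A1 in every pig, by 2.77 to 4.21 times per unit of length. COL3A1 exceeded COL1A2 by 2.94 to 3.37 times in S-H and by 2.57 to 2.83 times in S-L, ratios that did not overlap between the groups. This was 1 of 2 such ratios among 12 computed, and no test was made of it.

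Type V collagen, whose chains start and limit the growth of type I fibrils, was present through all 3 genes. COL5A2 was 16.0, 14.6 and 44.8 FPKM in LW63, LW70 and LW119, and 16.3, 15.5 and 14.0 FPKM in LW82, LW88 and LW90. Its S-H mean rested on LW119, the other 5 pigs lying within 14.0 to 16.3 FPKM, and without LW119 its log2 fold change fell from 0.52 to 0.00. COL5A3 ranged from 10.6 FPKM in LW90 to 20.6 FPKM in LW119, with S-H pigs at 17, 10.7 and 20.6 FPKM and S-L pigs at 15.0, 13.3 and 10.6 FPKM. COL5A1 was 9.94, 6.62 and 15.5 FPKM in S-H and 7.36, 8.95 and 5.95 FPKM in S-L. LW119 was the highest pig for all 3 chains and LW90 the lowest. COL11A1, the type XI chain that shares fibrils with type V collagen, was more uneven, with 2.64, 0.935 and 3.22 FPKM in LW63, LW70 and LW119 and 4.65, 0.841 and 0.818 FPKM in LW82, LW88 and LW90. A high and a low pig thus occurred in each group, and its interval, from -1.05 to 1.85, was the second widest after that of COL28A1. COL27A1, a minor fibrillar collagen, ranged from 0.145 to 0.403 FPKM. COL2A1 and COL11A2, which are known from cartilage, stayed under the minimum for testing, with means of 0.00675 and 0.0179 FPKM.

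Basement membrane collagens held the member that varied least. COL4A2, a chain of the type IV network found around every muscle fiber and capillary, was 109.5, 86.7 and 119.9 FPKM in LW63, LW70 and LW119 and 105.0, 107.1 and 88.8 FPKM in LW82, LW88 and LW90. The highest pig exceeded the lowest by only 1.38 times, the narrowest range of the 20 members whose mean reached 1 FPKM. Its fold was 1.04, with a 95% interval from 0.72 to 1.51 (limma, unadjusted p = 0.796), and the sign of its log2 fold change turned from 0.06 to -0.16 with size factors. The partner chain COL4A1, whose levels rest on the conversion of transcripts without a symbol from TPM to FPKM, was no member. Its larger record lies 101 bases from COL4A2 on chromosome 11, and it had 138.7, 120.9 and 150.6 FPKM in the S-H pigs and 135.5, 136.9 and 108.8 FPKM in the S-L pigs, with a log2 fold change of 0.11 (standard error 0.24). As with COL4A2, the groups overlapped and LW119 was the highest pig. The remaining chains were far lower. COL4A5 was 0.914, 1.46 and 0.746 FPKM in S-H and 0.913, 0.447 and 0.677 FPKM in S-L, and COL4A6, which lies 1422 bases from it on the X chromosome, was 0.214, 0.549 and 0.206 FPKM in S-H and 0.326, 0.299 and 0.233 FPKM in S-L. LW70 had the highest sum of both, in contrast to its low fibrillar levels. For COL4A5, the transcript COL4A5-201 gave 39.9% of the level in LW70. COL4A5-202, the leading transcript in every pig, had 0.876 FPKM in LW70, below LW63 (0.89 FPKM) and LW82 (0.907 FPKM). For COL4A6, the high level of LW70 rested on 1 assembled transcript, which gave 79.3% of it. The annotated COL4A6-202 had 0.114 FPKM in LW70, below LW119 (0.135 FPKM), LW82 (0.142 FPKM) and LW88 (0.205 FPKM). COL4A3 and COL4A4, the chains of kidney and lung basement membranes, had means of 0.0219 and 0.0111 FPKM and were not tested.

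Type VI collagen, which links the basement membrane to the matrix and whose loss causes muscle disease, had estimates close to 0 in its 3 main chains, with 95% intervals of the fold between 0.56 and 1.94. COL6A3 was 51.0, 33.3 and 110.0 FPKM in LW63, LW70 and LW119 and 45.9, 72.4 and 50.0 FPKM in LW82, LW88 and LW90. COL6A1, on chromosome 13 from 208295240 to 208313127, was 40.4, 29.2 and 60.3 FPKM in S-H and 32.8, 50.3 and 36.6 FPKM in S-L. COL6A2, placed on an unplaced scaffold of the assembly, was 29.5, 22.5 and 51.1 FPKM in S-H and 25.2, 42.3 and 32.3 FPKM in S-L. The order of the pigs was similar in the 3 chains, with LW119 highest, LW88 next and LW70 lowest. Their log2 fold changes were 0.06, 0.08 and -0.01, and the fold of COL6A1 was 1.06 with a 95% interval from 0.66 to 1.7. With size factors all 5 beaded filament members had a lower estimate in S-H, with a median of -0.23, while 50.9% of all genes had a higher one. The ratio of COL6A1 to COL6A2, chains of the same molecule, stayed between 1.13 and 1.37 in all pigs. The alternative chains were lower, COL6A6 at 1.07 to 4.26 FPKM and COL6A5 at 0.0954 to 0.243 FPKM.

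Network collagens were low. COL8A1, known from vessel walls, was 3.11, 1.55 and 6.69 FPKM in LW63, LW70 and LW119 and 1.71, 5.79 and 1.97 FPKM in LW82, LW88 and LW90. Its high pigs were 1 of each group. COL8A2, its partner chain, was 0.376, 0.116 and 0.129 FPKM in S-H and 0.0595, 0.0813 and 0.126 FPKM in S-L, with LW63 far above the other 5 pigs. COL10A1, known from growing cartilage, was listed at 0.403 to 0.782 FPKM, but at least 88.7% of this in every pig came from 1 assembled transcript (chromosome 1, 81745945 to 81880059) that spans far beyond the annotated gene (81765724 to 81773818). The annotated transcript alone had at most 0.0623 FPKM, and a level of COL10A1 itself could not be read from the sum.

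Fibril-associated collagens held the largest estimate. COL16A1, which binds collagen fibrils and cell surfaces, was 3.38 FPKM in LW63, 2.05 FPKM in LW70 and 5.28 FPKM in LW119, against 1.84 FPKM in LW82, 1.93 FPKM in LW88 and 1.67 FPKM in LW90. All S-H pigs lay above all S-L pigs, with LW70 only just above LW88. The means were 3.57 ± 1.62 FPKM (SD, n = 3) and 1.81 ± 0.13 FPKM (SD, n = 3). The log2 fold change was 0.84 with a standard error of 0.35 and a 95% interval from 0.07 to 1.62 (limma, unadjusted p = 0.0362, adjusted p = 0.607). With size factors it was 0.63 (limma, unadjusted p = 0.0625). Without LW119 it was 0.52 (limma, unadjusted p = 0.156) and without LW70 it was 1.18 (limma, unadjusted p = 0.00502). Without LW63, LW82, LW88 or LW90 it was 0.83, 0.85, 0.89 and 0.79 (limma, unadjusted p = 0.0803, 0.0661, 0.0595 and 0.082). Only the fit without LW70 thus gave a lower p than the fit with all pigs. It was 0.84 with annotated transcripts only (limma, unadjusted p = 0.0408). With the transcript of the highest mean it was 0.13 (limma, unadjusted p = 0.929).

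COL14A1, which decorates fibrils in the perimysium, was 23.8, 12.8 and 30.7 FPKM in LW63, LW70 and LW119 and 12.4, 16.2 and 13.9 FPKM in LW82, LW88 and LW90. The closely related COL12A1 was 12.6, 6.38 and 11.0 FPKM in S-H and 6.93, 15.7 and 12.6 FPKM in S-L. COL14A1 had its highest levels in LW119 and LW63, but COL12A1 had its highest in LW88 of the S-L group. The ratio of COL14A1 to COL12A1 was 1.89, 2.0 and 2.78 in S-H and 1.78, 1.03 and 1.11 in S-L. The groups did not overlap in this ratio, the second of the 12 for which this was so, and no test was made. COL19A1, a collagen of forming muscle and of basement membrane zones, was 0.566, 0.349 and 0.939 FPKM in S-H and 0.273, 0.373 and 0.234 FPKM in S-L, with LW70 below LW88. COL21A1 was nearly level among pigs, at 1.01 to 1.65 FPKM. COL9A1, COL9A3 and COL22A1 were not tested, with means of 0.00305, 0.0744 and 0.0324 FPKM.

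Of the remaining members, COL15A1, a multiplexin of the muscle and capillary basement membrane, was 19.1, 17 and 10.6 FPKM in LW63, LW70 and LW119 and 18.0, 8.53 and 9.17 FPKM in LW82, LW88 and LW90. It was low in LW119, unlike the fibrillar genes. COL18A1, the related precursor of endostatin, ranged from 3.26 FPKM in LW82 to 7.99 FPKM in LW88. COL28A1, known from Schwann cell basement membranes, ranged from 0.146 FPKM in LW70 to 1.34 FPKM in LW88 and had the widest interval, from -1.33 to 1.97. COL23A1, a transmembrane collagen, lay between 0.14 and 0.255 FPKM.

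COL13A1, a transmembrane collagen needed at the neuromuscular junction, was the only member of the 29 lower in S-H at an unadjusted p below 0.05. It was 1.09 FPKM in LW63, 0.567 FPKM in LW70 and 1.24 FPKM in LW119, against 1.96 FPKM in LW82, 1.54 FPKM in LW88 and 1.63 FPKM in LW90. All S-H pigs lay below all S-L pigs, and LW70 was the lowest. The means were 0.966 ± 0.354 FPKM (SD, n = 3) and 1.71 ± 0.221 FPKM (SD, n = 3). The log2 fold change was -0.82 with a standard error of 0.34 and a 95% interval from -1.58 to -0.06 (limma, unadjusted p = 0.0374, adjusted p = 0.607). It was called with size factors, at -1.03 (limma, unadjusted p = 0.00583). Without LW70 it was -0.51 (limma, unadjusted p = 0.145), and it also missed 0.05 without LW82, LW88 or LW90 (limma, unadjusted p = 0.097, 0.0588 and 0.0625). However, 59.8% to 98.4% of the level came from 2 assembled transcripts over the lower-coordinate end of the gene, and with annotated transcripts alone the log2 fold change was -0.45 (limma, unadjusted p = 0.515). COL17A1 and COL25A1, also transmembrane, and COL26A1 were not tested, with means of 0.0333, 0.0259 and 0.0232 FPKM. Over all 10 members not tested, the highest single level was 0.181 FPKM for COL9A3 in LW88, all had a level above 0 in at least 1 pig, and 3 in all pigs.

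LW119 and LW70, both of the S-H group, lay at opposite ends for many members. LW119 was the highest pig for 14 of 29 members (48.3%), against 30.6% of all genes tested, and with size factors for 12 members (41.4%), against 18.7%. LW70, of the same group, was the lowest pig for 10 members (34.5%), against 19.4% of all genes, and with size factors for 15 (51.7%), against 19.6%. LW90 was the lowest pig for 11 members (37.9%), against 40.9% of all genes, and with size factors for none, against 18.3%. Within the 13 tested fibrillar and beaded filament members, LW119 was highest in 9 on both scales. Among the 20 members whose mean reached 1 FPKM, the highest pig exceeded the lowest by a median of 2.67 times, against 2.01 times for 9885 genes of that level. The range ran from 1.38 times for COL4A2 to 5.68 times for COL11A1.

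**Figure D3:**
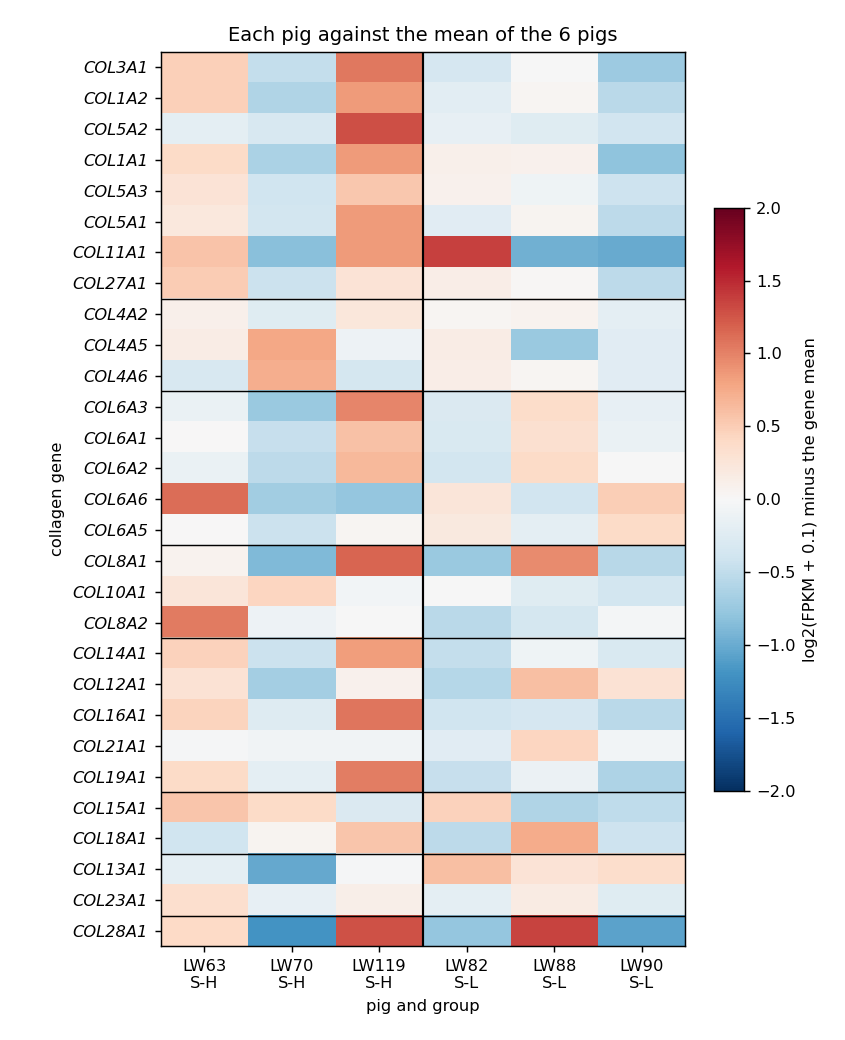
Level of each tested collagen gene (rows, grouped by kind) in each pig (columns) on the log2(FPKM + 0.1) scale, minus the mean of the gene over the 6 pigs, with red for above and blue for below. The LW119 column is red and the LW70 column is blue for most fibrillar and beaded filament genes, although both pigs belong to S-H.

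The number of members that passed also turned on these pigs. Without LW70, 7 of 29 members passed at an unadjusted p below 0.05 in limma, against 9.49% of all genes. They were COL14A1, COL16A1, COL19A1, COL1A1, COL1A2, COL3A1 and COL5A1, all higher in S-H. COL3A1 and COL16A1 were called in that fit, but its share of all genes called is not given here. The median log2 fold change of the members was 0.45 in that fit, against 0.27 for all genes. Without LW119, none was higher at that level, COL13A1 alone passed (against 8.63% of all genes), and the median was 0.08 against 0.18 for all genes. No member had an adjusted p below 0.05 in any of these fits. LW119 also had the lowest summed FPKM of all transcripts and the highest size factor, and the part of this in its collagen levels was not tested beyond the counts with size factors above.

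Sums over several transcripts could hide differences in which transcript carried the level. Of the 24 tested members with more than 1 transcript, 13 had the same leading transcript in all pigs, among them COL3A1, COL1A1, COL1A2, COL4A2 and COL14A1, and 11 had at least 2. COL5A2-201 was the leading transcript at 12.8 to 40.9 FPKM in 5 pigs, but in LW88 it had 0.674 FPKM and COL5A2-204, which spans less of the gene, had 13.1 FPKM, listed at 0 in the other 5 pigs. COL15A1-202 had 9.07 FPKM in LW63 and 14.0 FPKM in LW82 and was listed at 0 in the other 4, where COL15A1-201 led. COL16A1-202 led in 4 pigs, COL16A1-206 in LW119 with 5.2 FPKM and COL16A1-201 in LW82 with 1.65 FPKM. COL6A1 was led by COL6A1-202 in LW63 and LW82, by COL6A1-204 in LW70 and LW88, and by COL6A1-201 in LW119 and LW90. Each of these switches was found in pigs of both groups or in a single pig.

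**Figure D4:**
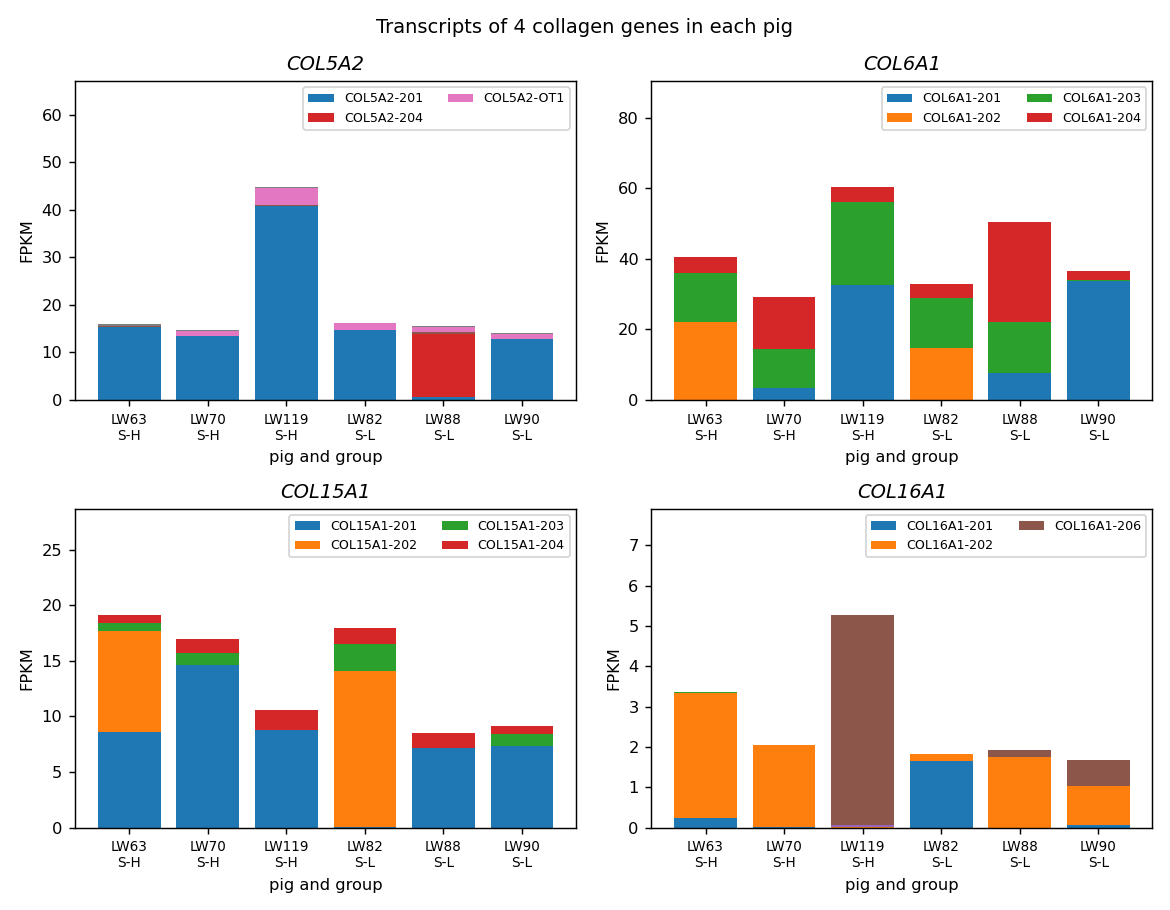
FPKM of the transcripts of COL5A2, COL6A1, COL15A1 and COL16A1 (stacked bars, 1 bar per pig, S-H pigs to the left), with transcripts that reach at least 2% of the highest gene sum named in the legend. The gene sums of COL6A1 lie between 29.2 and 60.3 FPKM, while the leading transcript changes between pigs of the same group.

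Assembled transcripts, which the authors built from the reads beyond the annotation, made up a large part of a few other members. They gave 64.5% to 91.2% of COL11A1 and 10.4% to 79.3% of COL4A6, and 62.3% of COL19A1 in LW119 but none in the other pigs. Neighbouring genes were a further limit. COL3A1 and COL5A2 overlap by 3960 bases on chromosome 15, and COL4A3 and COL4A4 by 514 bases on the same chromosome. How reads of such shared bases were divided was not tested.

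Genes that modify, fold, export, cleave, cross-link, bind or degrade collagen were followed in 9 lists of 103 genes, of which 98 were in the table and 91 tested. limma called 1 of them higher and 1 lower (2.2% of those tested, against 1.36% of all genes), and 8 (8.79%) passed at an unadjusted p below 0.05, against 8.16% of all genes. Thus the partners of collagen, as lists, had about the share of all genes. In prolyl and lysyl modification, 3 of 15 genes passed, all higher in S-H, against 7.08% of all genes in that direction. They were P3H3, P3H4 and CRTAP, members of the prolyl 3-hydroxylation and lysyl hydroxylation complexes of the endoplasmic reticulum. P3H3 was 2.78, 2.25 and 4.43 FPKM in LW63, LW70 and LW119 and 1.59, 1.83 and 0.855 FPKM in LW82, LW88 and LW90. P3H4 was 4.16, 3.52 and 4.65 FPKM in S-H and 2.64, 2.5 and 1.67 FPKM in S-L, and CRTAP was 3.97, 3.33 and 4.5 FPKM in S-H and 2.19, 2.91 and 1.85 FPKM in S-L. In each of the 3, all S-H pigs lay above all S-L pigs, LW70 included, unlike in the fibrillar genes. This order was found in 13.1% of all genes. Their log2 fold changes were 1.1, 0.84 and 0.75 (limma, unadjusted p = 0.0133, 0.0134 and 0.0224, adjusted p of at least 0.54 in each). With annotated transcripts only, CRTAP was 0.65 (limma, unadjusted p = 0.267). CRTAP also missed 0.05 without LW63, LW119, LW82 or LW90 (limma, unadjusted p = 0.0635, 0.0713, 0.0522 and 0.073).

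Of the 10 folding and export genes, LARP6, an RNA-binding protein of collagen mRNAs, was called, at 0.694, 2.06 and 1.38 FPKM in S-H and listed at 0 in all S-L pigs (limma, adjusted p = 0.0762), so that no fold is given. SERPINH1, the collagen chaperone HSP47, was 56.8, 37.8 and 124.1 FPKM in S-H and 30.1, 42.1 and 43.1 FPKM in S-L. It followed the order of COL3A1 in the S-H pigs but not in the S-L pigs, where LW90 had the most SERPINH1 and the least COL3A1. PCOLCE, which enhances removal of the C-propeptide, was 21.4, 14.1 and 41.5 FPKM in S-H and 9.88 to 16.2 FPKM in S-L, with LW70 within the S-L range and a log2 fold change of 0.93 (limma, unadjusted p = 0.0348). None of the 6 cross-linking genes, 9 fibril-binding proteoglycans, 11 receptors and 7 collagenases and inhibitors tested passed at an unadjusted p below 0.05. LOX, the main cross-linking oxidase, was 5.57 to 12.9 FPKM in S-H and 9.15 to 10.5 FPKM in S-L, and DCN, the small proteoglycan decorin, 151.6 to 327.5 FPKM and 184.1 to 308.3 FPKM. The groups overlapped in both. LAMA4, a laminin chain of vessel basement membranes, was 15.9, 14.3 and 19.6 FPKM in S-H and 11.0, 10.9 and 8.89 FPKM in S-L, without overlap. LAMA2, the laminin chain of the muscle fiber basement membrane, was the other partner of this list without overlap and went the opposite way, at 64.8, 51.0 and 72.1 FPKM in S-H and 88.5, 76.0 and 76.3 FPKM in S-L (log2 fold change -0.37, limma, unadjusted p = 0.149). Over all genes tested, the groups did not overlap in 14.8%. Of the 15 basement membrane partners tested, 5 had a positive log2 fold change, where 74.1% of all genes did. LAMA4 was the only 1 to pass at an unadjusted p below 0.05, with a log2 fold change of 0.69 (limma, unadjusted p = 0.0161).

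Among 11 matricellular genes and regulators, 6 had a positive and 5 a negative log2 fold change, where 74.1% of all genes were positive. At an unadjusted p below 0.05 in limma 2 passed, both lower in S-H, against 1.08% of all genes lower. CCN2, a secreted factor also known as CTGF that is induced by TGF-beta, was 20.3, 13.2 and 25.9 FPKM in LW63, LW70 and LW119 and 31.3, 59.9 and 51.4 FPKM in LW82, LW88 and LW90. All S-H pigs lay below all S-L pigs, as in 1.7% of all genes tested. Its log2 fold change was -1.26 with a standard error of 0.33 (limma, unadjusted p = 0.00333, adjusted p = 0.54), and it lost the call without LW70, LW88 or LW90, with a log2 fold change of -1.0 to -1.18. THBS1, a matrix protein that activates latent TGF-beta, was 62.1, 39.1 and 42.4 FPKM in S-H and 59.9, 92.5 and 201.2 FPKM in S-L, with a log2 fold change of -1.14 (limma, unadjusted p = 0.0189). LW63 exceeded LW82 in this gene. SPARC, which binds collagen outside the cell, was 183.5, 134.0 and 186.2 FPKM in S-H and 122.0, 121.6 and 110.3 FPKM in S-L, groups that did not overlap (limma, unadjusted p = 0.0681). S-H lay above S-L without overlap in 13.1% of all genes.

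Marker genes of the cell types that make or touch collagen were measured beside these levels. Of 57 marker genes, 52 were in the table and 50 tested. The 5 called (10% of those tested, against 1.36% of all genes) were all higher in S-H. They were the adipocyte genes ADIPOQ, PLIN1, FABP4, LEP and CIDEC. LIPE and THY1 also passed at an unadjusted p below 0.05. In all, 7 markers (14.0%) passed at that level, against 8.16% of all genes. The summed level of the 8 adipocyte genes was 1300.1, 729.0 and 450.0 FPKM in LW63, LW70 and LW119 and 382.7, 293.7 and 259.3 FPKM in LW82, LW88 and LW90. In this sum LW119 was the lowest S-H pig, while it was the highest of all in summed fibrillar collagens, at 535.9 FPKM against 172.7 to 360.6 FPKM in the others. The 6 markers of fibro-adipogenic progenitors and fibroblasts summed to 197.3, 93.8 and 163.5 FPKM in S-H and 97.1, 159.3 and 104.0 FPKM in S-L, with THY1 the only 1 of them to pass at an unadjusted p below 0.05. LW70 had the lowest sum of these markers, as of the collagens. PDGFRA, the defining marker of progenitors, was 39.3 FPKM in LW119 and 8.8 to 16.7 FPKM in the other 5 pigs. The rest of the list was divided: DPT and THY1 were also highest in LW119, whereas PI16 and SCARA5 were highest in LW63 and MFAP5 in LW88. SCARA5 was lowest in LW119, at 16.5 FPKM against 35.7 FPKM in LW63.

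The 6 macrophage markers summed to 59.4 FPKM in LW119, against 16.4 to 34.9 FPKM in the others, and LW70 was again the lowest. The 4 tendon genes summed to 98.0 FPKM in LW119 and 20.1 to 48.3 FPKM in the others, nearly all of it from THBS4, whereas TNMD, a defining gene of tendon cells, was listed at 0 in LW119 and in 3 other pigs. The 8 endothelium markers summed to 79.3 to 128.8 FPKM, the 8 markers of pericytes and smooth muscle to 157.7 to 257.1 FPKM, and the 5 Schwann cell markers in the table to 17.5 to 54.8 FPKM. The 3 satellite cell markers summed to 5.78 to 10.7 FPKM. The groups overlapped in the sum of every marker list but that of adipocytes, and the part of these cells in the collagen levels was not tested.

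**Figure D5:**
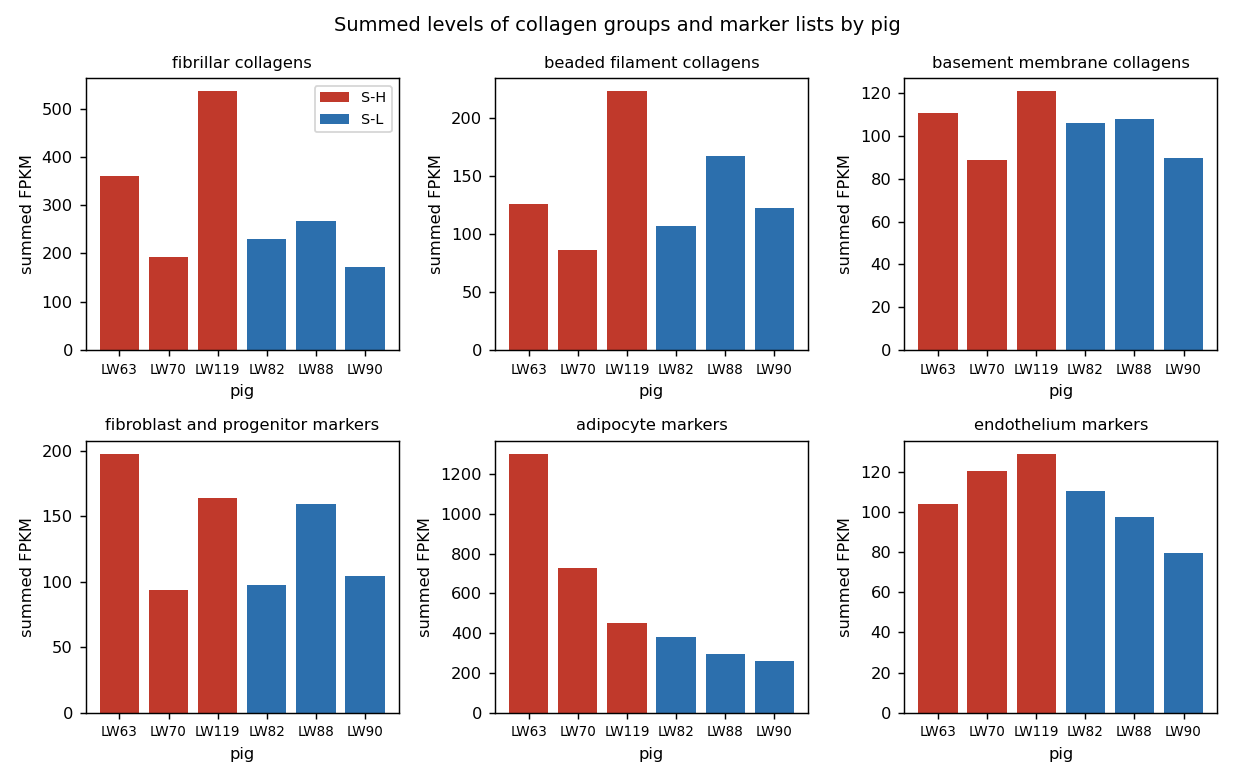
Summed FPKM (vertical axes, starting at 0) of 3 collagen groups and 3 marker lists in each pig, with red bars for S-H and blue bars for S-L. The adipocyte markers are higher in all S-H pigs, while LW119 has the highest fibrillar (535.9 FPKM) and beaded filament (222.6 FPKM) sums and LW70 lies at 191.8 and 86.2 FPKM.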

How the data were processed

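RNA of 6 LD muscles (3 S-H, 3 S-L) was sequenced. The authors aligned reads to Sscrofa11.1 with Hisat2, assembled transcripts with StringTie and deposited FPKM for 83119 transcripts. The deposited values of 21104 Ensembl transcripts without a symbol were taken to be TPM, a unit inferred from the values and not stated in the sources used here, and were converted to FPKM with 1 factor per pig computed from the same file (0.6385 to 0.8467). Depth per transcript is unknown, so precision rests on the spread between pigs.

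FPKM were summed over all rows of a gene, assembled transcripts included, in place of the annotated rows first planned. The 17084 protein-coding genes were typed from RefSeq by symbol (13901 of all genes typed) or by a reciprocal overlap of at least 50% (4666). Genes with a mean of at least 0.1 FPKM were tested on log2(FPKM + 0.1), which understates changes of low genes, by limma (version 3.58.1, R 4.3.3; variance trend, two-sided, Benjamini-Hochberg adjustment over all 12740 genes). The count test of the study was not used, since the file holds no counts. No scaling between libraries was added.

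The collagen genes, the partner and marker lists and the tests were chosen with earlier results of these data known. Members were named with the value of every pig if they passed at an unadjusted p below 0.05, did not overlap between groups, were among the 10 highest or belonged to a chain set of 1 molecule, and list genes if they passed or define a list. Further list genes, members and transcripts were named after their values were seen. On simulated data limma called 181 of 200 genes changed by a log2 of 2 (90.5%) and 0.55% of unchanged genes. The estimates of all members were smaller than this, and changes of their size were not simulated. Other settings were pseudocounts, minimum levels, scalings, single transcripts, annotated transcripts only (chosen after seeing the data) and leaving out each pig. No sequences were used. Plots used Python 3.11.15 and matplotlib 3.10.9.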

Additional observations from a re-analysis of the deposited data

How the results depend on the processing

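No member had an adjusted p below 0.05 in limma under any setting tried. The number of members called, 0 in the values reported, was 1 with median-ratio size factors and 1 with quantile normalization (COL13A1 in both), and 0 to 2 when each pig was left out. The share of all genes called is given only for the values reported (1.36%), so these counts have no share of their own setting beside them. At an unadjusted p below 0.05 in limma, 2 members passed in the values reported, against 8.16% of all genes. The number was 1 with annotated transcripts only (7.85% of all genes), a setting chosen after seeing the data. It was 1 with size factors (6.68%), 1 with quantile normalization (6.6%) and 1 with the same summed FPKM (4.69%). It was 0 with no minimum (7.8%), 0 with the transcript of the highest mean (7.04%) and 3 with no variance trend (8.22%, COL19A1 added). With each pig left out it was 0 to 7, against 4.12% to 9.49% of all genes. The median log2 fold change stayed positive, at 0.03 to 0.45 with each pig left out. It fell below the median of all genes without LW90 (0.03 against 0.12) and without LW119 (0.08 against 0.18). With any other pig left out it was above.

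The sign of log2 fold changes near 0 turned with scaling: with size factors, quantile normalization and the same summed FPKM, COL4A2 was -0.16, -0.14 and -0.07, COL4A6 -0.10, -0.26 and -0.06, COL6A1 -0.14, -0.05 and -0.06, and COL6A3 -0.16, -0.07 and -0.08. With the transcript of the highest mean, COL11A1 was -0.70, COL4A6 -0.21 and COL6A3 -0.00, and COL4A6 was -0.12 with annotated transcripts only. With each pig left out, COL11A1 ran from -0.00 to 1.18, COL4A2 from -0.04 to 0.20, COL4A6 from -0.31 to 0.23, COL6A1 from -0.19 to 0.33, COL6A2 from -0.34 to 0.25, COL6A3 from -0.42 to 0.45 and COL8A1 from -0.29 to 0.77. The cause was not tested. No paired analysis was possible because the 2 groups are different pigs and their numbers follow the order of the samples only. With 3 pigs per group the median interval allows 1.8-fold either way, and counting error of low genes could not be separated from the spread between pigs.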

Other observations

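Other collagen genes had no symbol in the table and were named after their values were seen. Names came from a gene name list by Ensembl identifier or, failing that, from overlap with RefSeq genes. Their levels rest on the conversion from TPM. COL7A1, the collagen of anchoring fibrils, was 0.232, 0.189 and 0.264 FPKM in LW63, LW70 and LW119 and 0.297, 0.559 and 0.226 FPKM in LW82, LW88 and LW90. COL24A1, a minor fibrillar collagen, was 0.885 FPKM in LW82 and 0.00565 to 0.113 FPKM in the other 5 pigs. A second record of COL4A1, on chromosome 11 from 76858296 to 76888850, had 48.4, 43.8 and 66.0 FPKM in S-H and 53.9, 49.3 and 44.9 FPKM in S-L and was not tested. COL9A2 and COL20A1 stayed under the minimum of 0.1 FPKM. TNC, a matrix protein of tendon and of repairing muscle, was 26.1 FPKM in LW119, the pig highest in most fibrillar collagens, and 0.637 to 5.67 FPKM in the others, and TIMP1, an inhibitor of collagenases, was 16.1 FPKM in LW119 and 1.16 to 3.18 FPKM in the others.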
